A study of Mus musculus with 30 samples.

Results

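Replication-dependent histone genes encode the H1, H2A, H2B, H3 and H4 proteins that package newly made DNA. They were taken here as every row of the deposited expression table whose symbol began with Hist1h to Hist4h, which gave 53 of 23986 gene symbols. Of these, 5 encode linker histone H1, 15 encode H2A, 14 H2B, 10 H3 and 9 H4. By genomic cluster, 42 carried a Hist1 symbol, 7 Hist2, 3 Hist3 and 1 Hist4. In the reference annotation the Hist1 members lie on mouse chromosome 13, the Hist2 members on chromosome 3, the Hist3 members on chromosome 11 and Hist4h4 on chromosome 6.

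Most histone mRNA of this class is made while a cell replicates its DNA and is removed when replication ends. The mRNAs have no introns and usually end in a stem-loop, bound by the protein Slbp, in place of a poly(A) tail. Some of these genes are also known to give polyadenylated mRNA in differentiated human cells, where replication-independent genes such as those of the H3.3 type supply most new histone. A few members, among them Hist1h1t, Hist1h2aa and Hist1h2ba, are known as testis forms.

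The arrays came from a study that turned mouse embryonic stem cells (ESCs) into renal progenitors and kidney organoids and set them beside kidneys. There were 10 groups of 3 Affymetrix Mouse Gene 2.0 ST arrays each, 30 arrays in all. RNA was labelled with a whole-transcript kit, which does not start from the poly(A) tail. ESCs were of the single line 1B10, kept on mouse embryonic fibroblast feeders treated with mitomycin C, in serum and LIF.

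Mesoderm cells had been primed on gelatin with Fgf2 and activin A and then given Bmp4, activin A and Fgf2. Intermediate mesoderm cells were next given retinoic acid, activin A and Y27632. Renal progenitors followed after culture with Bmp7 and Fgf2, without passage. For organoids, dissociated progenitors were aggregated on filters with Y27632, then given CHIR99021, a GSK3 inhibitor, and Bmp7, and kept in serum medium to day 8, 14 or 21 (8D, 14D and 21D). E12.5, E13.5 and adult kidneys were whole frozen tissue. For the kidneys, no source used here gives the strain, the age of the adults or any pooling, nor is it stated whether replicates were separate cultures or animals. The p-values therefore measure the spread between these arrays, which may be technical in part, and precision is limited by having 3 arrays in a group.

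Values are log2 intensities after RMA, and array medians lay between 5.76 and 5.94. As a gauge of background, the 95th percentile of 1399 olfactory and vomeronasal receptor genes lay between 4.99 and 5.64 on the arrays. Group means of 16 histone genes stayed below the group's mean gauge in all 10 groups, 15 stood above it in all 10, and 22 in some. Between 15 and 37 histone genes were above the gauge on any one array. Some markers of several labels were weak: the nephron progenitor gene Six2 had a mean of 5.25 in renal progenitors against 10.04 in E12.5 kidneys. Osr1 (10.49 against 11.25) and Ret (7.56 against 8.89) were closer in these 2 groups. All 8 embryonic kidney markers, Six2 and Ret among them, were called lower in progenitors than in embryonic kidneys. Nanog, a pluripotency gene, still stood at 10.55 in 8D organoids against 11.48 in ESCs. Mesoderm cells had raised T (10.50 against 7.32 in ESCs), whereas Mesp1 was flat at 4.85, and all 7 adult tubule genes were higher in adult than in embryonic kidneys, Slc34a1 at 12.65 and Lrp2 at 11.94. Lrp2 also stood at 9.01 in mesoderm and 9.28 in intermediate mesoderm cells, and 1 of the 7 genes was called higher in mesoderm cells than in ESCs. By their labels, 5 arrays were of batch 1 (replicate 1 of the E13.5 kidneys and of each of the 4 groups from ESCs to progenitors) and 25 of batch 2.

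In an F test over the 10 groups (limma with a term for batch, adjusted p under 0.05), 48 of the 53 members varied, or 90.6%, where 66.1% of all genes did. The 5 members that did not pass were Hist1h1t, Hist1h2ah, Hist1h2bp and the transcribed pseudogenes Hist1h2al and Hist3h2bb-ps. Mesoderm cells held the highest group mean for 26 members and E13.5 kidneys for 11, and adult kidneys held the lowest mean for 36. The same counts were not made over all genes. They also include the 16 members below the gauge in every group, whose order of groups lies within background. The mean over the 53 genes lay between 6.36 and 6.69 on the mesoderm arrays, between 5.24 and 5.55 on the progenitor arrays and between 4.61 and 4.77 on the adult kidney arrays. In bulk RNA such as this, fewer cells of a type and less RNA per cell cannot be told apart.

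**Figure D1:**
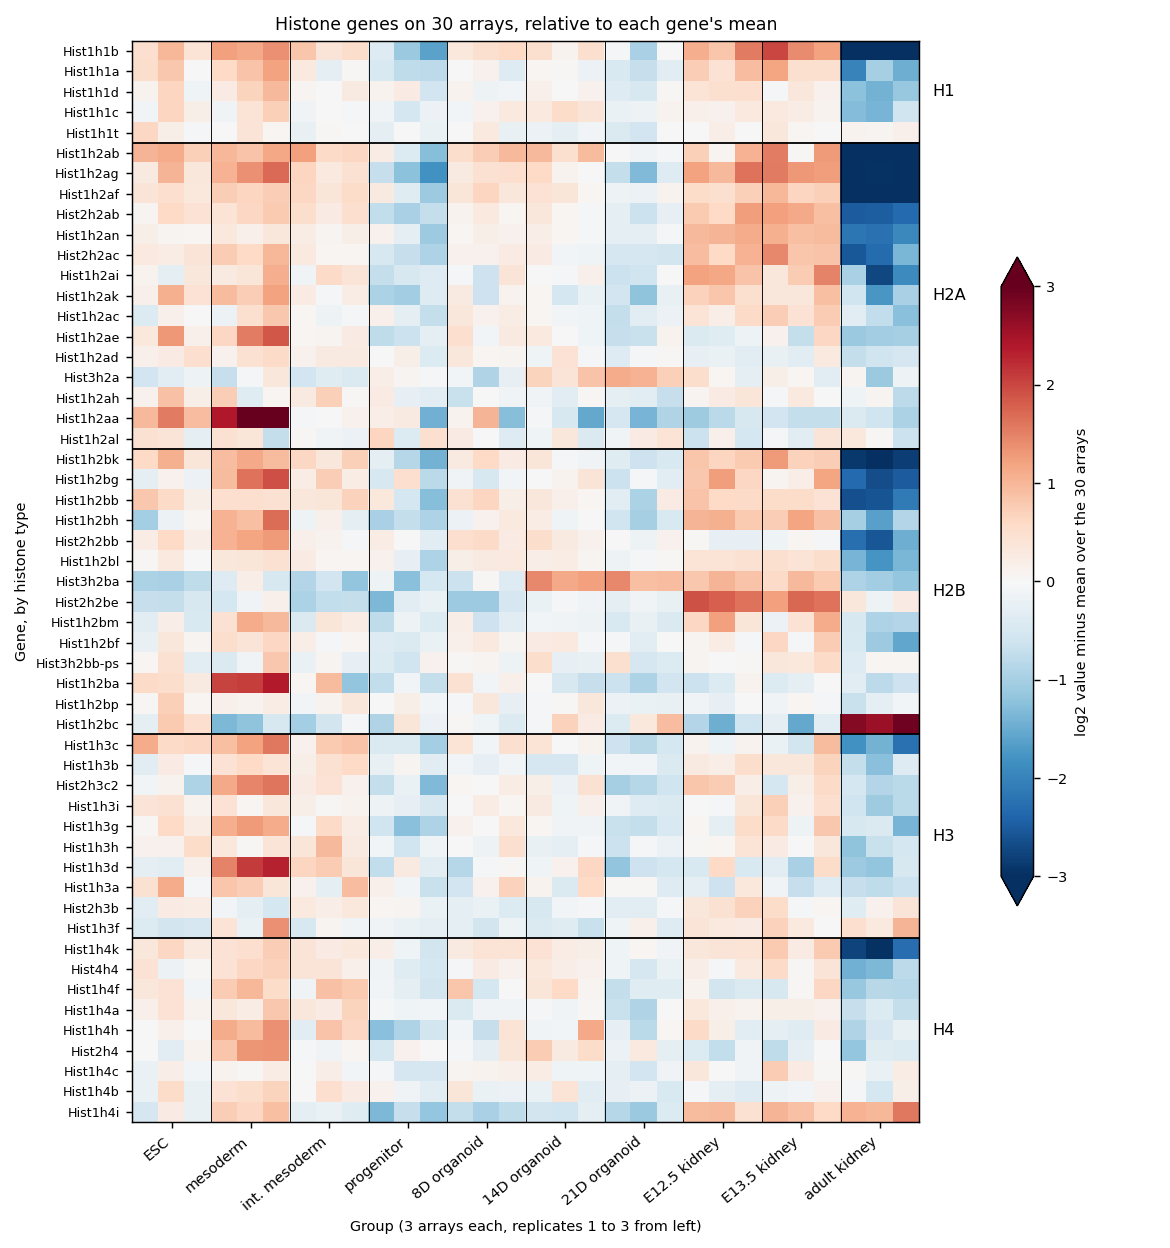
Each row is 1 of the 53 histone genes, grouped by histone type, and each column 1 of 30 arrays, 3 per group in the order given on the axis. Colour is the log2 value minus the gene's mean over the 30 arrays, cut at 3 either way. Adult kidney columns are blue for most rows, except rows such as Hist1h2bc and Hist1h4i, and mesoderm columns are red for most rows.

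The widest ranges of group means belonged to Hist1h2ab (an H2A gene, 6.36 on the log2 scale), Hist1h1b (the H1.5 gene, 6.16), Hist1h2ag (H2A, 4.99) and Hist1h2af (H2A, 4.07). For the first 3 of these the lowest group was adult kidney, with means of 3.68, 2.95 and 3.79 under the adult gauge of 5.27, so the sizes and the order of their ranges rest on background. The narrowest belonged to Hist1h1t (0.58), Hist1h2al (0.59), Hist1h2bp (0.61) and Hist3h2bb-ps (0.70), all but Hist1h2al below the gauge in every group. Many members have nearly identical coding sequences, so probes of one gene may bind RNA of another. Over the 30 arrays, 22 pairs drawn from 11 members were correlated at r over 0.95, the closest being Hist1h2af with Hist1h4k (r = 0.99), which code for different histones. These arrays share the same tissues and the same large drop in adult kidney, and the part of cross-hybridisation was not tested.

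RefSeq promoter windows of build GRCm38.p6 were at hand for 46 of the 53 members, and the 250 bases before the annotated start were searched on both strands for the octamer ATTTGCAT, for CCAAT and for TATAAA. No matches of different motifs overlapped. The octamer, the motif that the factor Oct1 (gene Pou2f1) is known to bind in H2B promoters, was found in 7 of 14 H2A windows and 6 of 11 H2B windows and in 0 of 5 H1, 0 of 8 H3 and 0 of 8 H4 windows. Of all 32851 promoter windows, 1.6% held it. Windows of H2A and H2B genes that start close together overlap, so the same octamer can count for both types, as for Hist1h2aa and Hist1h2ba. The H2A and H2B counts are therefore not independent. CCAAT was present in 39 of the 46 member windows (84.8%, against 33.8% of all windows), with 2 of 8 H4 windows as the low exception, and TATAAA in 24 (52.2%, against 12.4%).

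The 5 upstream windows below belong to the genes on which the results turn most: Hist1h2ab and Hist1h1b with the widest ranges, Hist1h2aa of the testis form raised in mesoderm cells, and Hist3h2a and Hist3h2ba, which rose in the later organoids. Capitals mark ATTTGCAT, CCAAT or TATAAA, or their reverse complements ATGCAAAT, ATTGG and TTTATA, each sequence ends at the base before the start, and build GRCm38.p6 applies to all. The windows lie at chr13:23750838-23751087 on the plus strand (Hist1h2ab), chr13:21780626-21780875 on the minus strand (Hist1h1b), chr13:23934187-23934436 on the plus strand (Hist1h2aa), chr11:58954435-58954684 on the plus strand (Hist3h2a) and chr11:58948661-58948910 on the plus strand (Hist3h2ba).
Hist1h2aa: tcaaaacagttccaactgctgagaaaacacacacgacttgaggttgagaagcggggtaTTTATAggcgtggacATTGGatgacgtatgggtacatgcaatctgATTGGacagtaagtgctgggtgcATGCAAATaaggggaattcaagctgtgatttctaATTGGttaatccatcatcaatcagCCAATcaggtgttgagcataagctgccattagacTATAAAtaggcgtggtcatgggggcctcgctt
Hist1h2ab: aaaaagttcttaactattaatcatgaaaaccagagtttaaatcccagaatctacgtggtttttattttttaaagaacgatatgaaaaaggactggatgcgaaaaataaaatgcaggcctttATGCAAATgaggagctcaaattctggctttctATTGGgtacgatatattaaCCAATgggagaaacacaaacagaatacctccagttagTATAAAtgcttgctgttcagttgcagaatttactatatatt
Hist1h1b: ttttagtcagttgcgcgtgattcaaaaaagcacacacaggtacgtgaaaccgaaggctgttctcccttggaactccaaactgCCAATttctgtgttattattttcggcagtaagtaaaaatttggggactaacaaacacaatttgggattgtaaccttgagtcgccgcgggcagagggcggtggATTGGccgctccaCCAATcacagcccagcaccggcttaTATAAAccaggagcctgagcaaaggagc
Hist3h2a: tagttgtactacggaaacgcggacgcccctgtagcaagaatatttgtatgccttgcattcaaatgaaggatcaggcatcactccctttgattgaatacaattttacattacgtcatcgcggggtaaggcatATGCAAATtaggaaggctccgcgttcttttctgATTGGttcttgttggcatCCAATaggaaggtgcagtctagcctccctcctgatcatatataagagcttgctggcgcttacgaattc
Hist3h2ba: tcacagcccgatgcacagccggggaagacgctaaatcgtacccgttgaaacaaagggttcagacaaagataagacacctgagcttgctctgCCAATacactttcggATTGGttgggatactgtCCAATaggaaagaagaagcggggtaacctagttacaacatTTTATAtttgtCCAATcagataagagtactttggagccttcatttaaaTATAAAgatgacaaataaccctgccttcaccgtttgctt
The octamer starts at position -129 before the Hist1h2ab start, at -124 before that of Hist1h2aa and at -119 before that of Hist3h2a, and the Hist1h1b and Hist3h2ba windows hold none. All 5 windows hold CCAAT, and Hist3h2a alone of the 5 has no TATAAA.

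Among the 46 members with a promoter window, 6 pairs start head to head within 500 bases, and all 6 join an H2A gene to an H2B gene. The 7 members without a window, Hist1h2bc and Hist2h2be among them, could not enter this search. The testis pair Hist1h2aa and Hist1h2ba, 281 bases apart, passed the test together in both comparisons that involved mesoderm cells. The other pairs were mixed. In adult against embryonic kidneys both genes were called lower for Hist1h2ae with Hist1h2bg, Hist1h2bf with Hist1h2ad and Hist1h2bl with Hist1h2ai. Hist1h2ah and Hist1h2bp, below the gauge in every group, were called in no comparison. Their partners Hist1h2bk (log2 change -3.79) and Hist1h2an (-3.08) were called lower in adult kidneys.

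In mesoderm cells against ESCs, the H3 gene Hist1h3d, the testis H2A and H2B genes Hist1h2aa and Hist1h2ba, the H3 gene Hist2h3c2 and the H2B genes Hist1h2bg and Hist1h2bh rose most, by between 1.58 and 2.13 on the log2 scale, while the H2B gene Hist1h2bc fell. In all 13 members were called higher and 1 lower, whereas 5.86% of all genes were called higher and 5.8% lower. The median log2 change of the 53 members was 0.45, against 0.01 for all genes. By type, 1 of 15 H2A, 5 of 14 H2B, 4 of 10 H3, 3 of 9 H4 and 0 of 5 H1 genes were called higher. Hist1h2bh rose from an ESC mean of 4.65, below the gauge.

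Hist1h3d values were 4.92, 4.90 and 5.37 in ESCs and 6.71, 7.33 and 7.52 in mesoderm cells. The groups did not overlap, and ESC values lay around the gauge. The fitted rise was 2.13 (SE 0.34, adjusted p = 0.000215). For Hist1h2aa the values were 7.17, 7.76 and 7.13 in ESCs and 8.60, 9.43 and 9.32 in mesoderm cells, again without overlap (log2 change 1.76, SE 0.46, adjusted p = 0.0122). The Hist1h2aa call was lost in 4 of 14 alternatives. These were batch 2 arrays alone (log2 change 1.93, adjusted p = 0.0573) and leaving out mesoderm replicate 2 or 3 or ESC replicate 1. The largest adjusted p for Hist1h2aa was 0.0624. Its partner Hist1h2ba stood at 3.21, 3.16 and 2.91 in ESCs and at 4.66, 4.71 and 5.02 in mesoderm cells, a rise of 1.70 (SE 0.33, adjusted p = 0.00120) in values below the gauge. Of the germ cell markers Ddx4, Dazl and Sycp3, 0 were called higher and 1 lower, with a median log2 change of -1.36.

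Hist1h2bc ran the other way. Its values were 8.56, 9.62 and 9.32 in ESCs and 7.48, 7.61 and 8.35 in mesoderm cells, a fall of 1.35 (SE 0.35, adjusted p = 0.0133). The call was lost without mesoderm replicate 1 or 2 or ESC replicate 2 (largest adjusted p = 0.0819). Hist1h2ab, at 9.75 to 10.14 in ESCs and 9.89 to 10.19 in mesoderm cells, was not called. Of 36 S phase genes 10 were called higher and 0 lower, and of 20 mitosis genes 0 were higher and 1 lower. Of the 7 fibroblast and feeder markers 6 were lower in mesoderm cells, with list means of 7.81 to 8.51 in ESCs and 6.16 to 6.66 in mesoderm cells, and 3 of 5 macrophage markers were lower. The part of feeder cells in the ESC values was not tested. Within batch 2 arrays alone 10 histone genes were called, 9 of them among the 14, and 9 were called without ESC replicate 1.

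In intermediate mesoderm cells 14 histone genes were called lower than in mesoderm cells and 0 higher. Of all genes 7.05% were called, 3.15% higher and 3.9% lower. Over the 53 members the median log2 change was -0.38, against -0.01 for all genes. Called members were 1 H1, 2 H2A, 6 H2B, 3 H3 and 2 H4 genes. Hist1h2aa and Hist1h2ba fell most. These comparisons share the mesoderm arrays.

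Hist1h2aa stood at 6.15, 6.19 and 6.32 in intermediate mesoderm cells, below all ESC and mesoderm values, and had fallen by 2.90 from mesoderm cells (SE 0.46, adjusted p = 0.000388). Hist1h2ba, at 2.70, 3.58 and 1.46, fell by 2.22 (SE 0.33, adjusted p = 0.000229), with intermediate mesoderm replicates that spread widely around receptor levels. The next were Hist1h3d (fell by 1.38), Hist1h2bh (fell by 1.29), the H2A gene Hist1h2ae (fell by 1.22) and the H4 gene Hist2h4 (fell by 1.20). Hist1h2bh and Hist1h2ae fell to means below the gauge. Among linker histones, Hist1h1a, which encodes H1.1, fell by 0.87 (SE 0.24, adjusted p = 0.0250), to a mean just below the gauge. That call was lost on leaving out any of 5 of the 6 arrays compared. Hist2h2be, an H2B gene, fell by 0.63 (SE 0.18, adjusted p = 0.0279), to a mean below the gauge. This call was lost in 6 of 14 alternatives (largest adjusted p = 0.137). The calls of Hist1h3d and Hist1h2ae were each lost in 3 of 14, all on leaving out 1 array.

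Among S phase genes 16 of 36 were lower and 0 higher, and of the 20 mitosis genes limma called 0, with 4 at an unadjusted p under 0.05. Histone mRNA processing genes gave 7 of 21 lower, among them Ncbp1 of the cap-binding complex and Srrt, which binds it. Within batch 2 arrays alone 12 histone genes were called lower, all among the 14. Without mesoderm replicate 3 the count was 6, without intermediate mesoderm replicate 3 it was 7 and without mesoderm replicate 2 it was 8, while weighting the arrays by their quality gave 22, the 14 included.

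**Figure D2:**
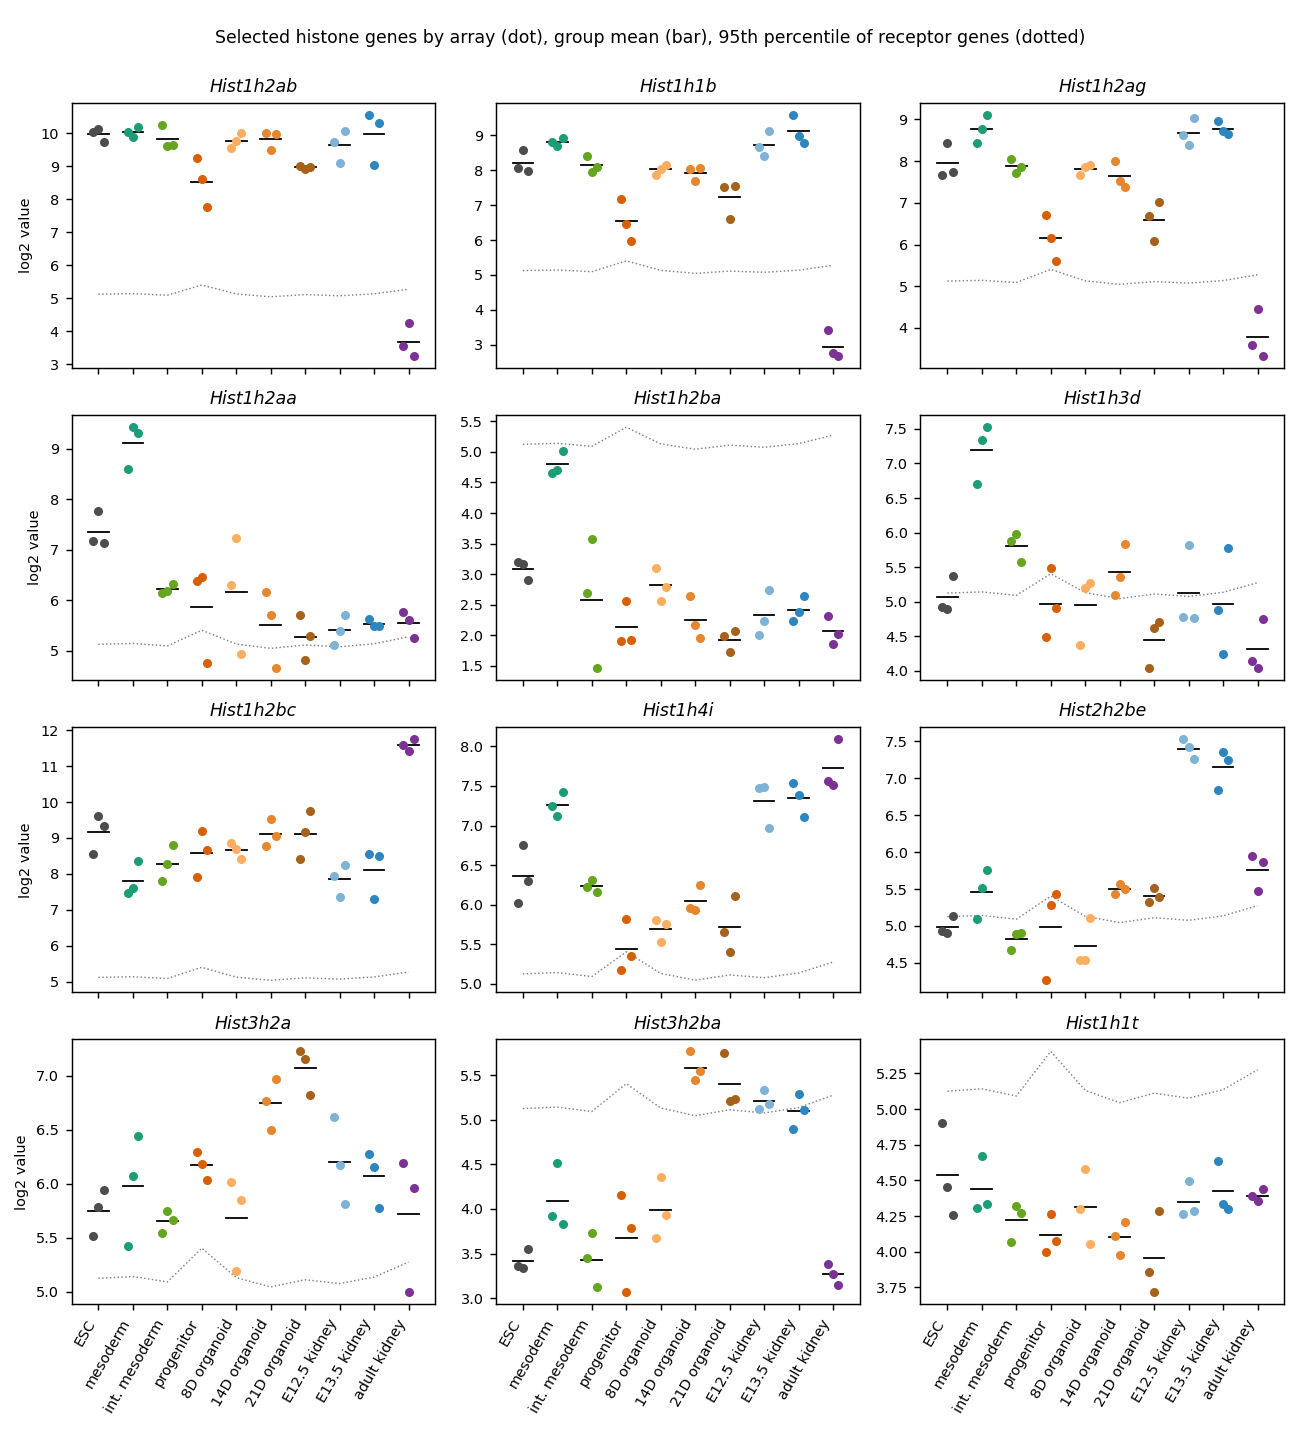
The log2 value of 12 histone genes on each array (dots, replicates 1 to 3 from left), with the mean of each group of 3 as a bar and the mean 95th percentile of receptor genes as a dotted line. The vertical scale differs between panels. Hist1h2aa and Hist1h3d peak in mesoderm cells, Hist1h2ab and Hist1h1b drop below the dotted line in adult kidney, Hist1h2bc is highest in adult kidney, and Hist3h2a and Hist3h2ba are raised in 14D and 21D organoids.

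In renal progenitors against intermediate mesoderm cells, Hist1h2ag, Hist1h1b and the H2B gene Hist1h2bk fell most, and 24 members were called lower and 0 higher, whereas 15.9% of all genes were called lower and 10.7% higher. Over all members the median log2 change was -0.49, against 0.02 for all genes. Lower members were 2 H1, 7 H2A, 4 H2B, 5 H3 and 6 of 9 H4 genes.

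Hist1h2ag values were 8.04, 7.71 and 7.87 in intermediate mesoderm cells and 6.71, 6.17 and 5.60 in progenitors, a fall of 1.72 (SE 0.30, adjusted p = 0.000122). Hist1h1b went from 8.40, 7.96 and 8.10 to 7.18, 6.46 and 5.97, a fall of 1.62 (SE 0.27, adjusted p = 7.15e-05). Hist1h2ab went from 10.26, 9.61 and 9.64 to 9.25, 8.62 and 7.76, a fall of 1.30 (SE 0.31, adjusted p = 0.00267). None of the 3 genes overlapped between the groups, and in each of them progenitor replicate 3 was lowest. The H4 gene Hist1h4h fell by 1.30, to a mean below the gauge. The H3 gene Hist1h3c fell by 1.23, with the means of both groups below the gauge. Hist4h4, the only measured member of its cluster, fell by 0.64 (SE 0.17, adjusted p = 0.00634), a call lost in 2 of 14 alternatives. Hist1h1a fell by 0.68 (SE 0.24, adjusted p = 0.0355), a call lost in 7 of 14, batch 2 alone among them (largest adjusted p = 0.131). Its means in both groups were below the gauge.

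Of the 24 members lower in progenitors, 5 were also among the 13 higher in mesoderm cells than in ESCs, which is 38.5% of the 13 and 20.8% of the 24. Of all 53 members 45.3% were lower in progenitors, so the share among the 13 was not above that of the members at large. These were Hist1h2bh, Hist1h3g, Hist1h4h, Hist1h4i and Hist2h3c2. Of the largest risers in mesoderm cells, Hist1h3d had a log2 change of -0.85 in progenitors and Hist1h2aa of -0.35, neither called.

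Cell cycle genes moved in the same comparison: 31 of 36 S phase genes and 19 of 20 mitosis genes were lower in progenitors. The 3 progenitor arrays also differed among themselves. In replicates 1, 2 and 3 the S phase list mean was 7.95, 7.75 and 7.35, the mitosis list mean 9.09, 8.64 and 7.94, the ESC marker mean 8.38, 7.18 and 5.77, and the histone mean 5.55, 5.48 and 5.24. Fibroblast markers rose against intermediate mesoderm cells, 6 of 7 called higher and 0 lower, with list means of 6.94 to 7.57 there and 9.21 to 9.94 in progenitors. The part of these cells in the histone values was not tested. Without progenitor replicate 3, 15 members were called lower, within batch 2 alone 21, and in a fit to the 6 arrays compared 13.

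Against embryonic kidneys (the mean of E12.5 and E13.5), progenitors were lower for 29 histone genes and higher for 0, where 20% of all genes were called lower and 14.2% higher. The median log2 change was -0.61, against 0.02 for all genes. Called members were 2 of 5 H1, 9 of 15 H2A, 9 of 14 H2B, 4 of 10 H3 and 5 of 9 H4 genes. Hist1h2ag was lower by a log2 change of -2.59 (SE 0.26, adjusted p = 4.56e-08) and Hist1h1b by -2.45 (SE 0.23, adjusted p = 2.07e-08).

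Hist2h2be, an H2B gene whose human counterpart is known to give polyadenylated mRNA, set embryonic kidneys apart from all other groups. Its values were 7.53, 7.42 and 7.26 at E12.5 and 6.84, 7.35 and 7.25 at E13.5, while the 24 arrays of the other 8 groups lay between 4.26 and 5.95. In progenitors it stood at 4.26, 5.28 and 5.43, a log2 change of -2.20 against embryonic kidneys (SE 0.15, adjusted p = 2.12e-10). The progenitor mean was below the gauge, so the size of this change rests on background there. The H4 gene Hist1h4i had values of 6.97 to 7.54 in embryonic kidneys and 5.17, 5.81 and 5.35 in progenitors (log2 change -1.86, SE 0.18). Hist3h2ba was lower by a log2 change of -1.49 (SE 0.20), with progenitor values below the gauge.

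S phase genes gave 34 of 36 lower and mitosis genes 20 of 20. Embryonic kidneys also held red cell RNA, with list means for 6 markers of 8.999 to 10.07 on the 6 arrays and 4.56 to 5.05 in progenitors, and all 6 were called lower in progenitors. Of fibroblast markers 4 of 7 were higher in progenitors (list means of 9.21 to 9.94, against 8.22 to 8.77), and of ESC markers 3 of 5 (5.77 to 8.38, against 4.62 to 5.12). The part of these cells in the histone difference was not tested. Within batch 2 alone 30 histone genes were called. Between E13.5 and E12.5 kidneys limma called 0 histone genes and 0% of all genes. At an unadjusted p under 0.05 the count of histone genes was also 0, and their median log2 change was 0.08.

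In 8D organoids against progenitors, Hist1h2ag, Hist1h1b, Hist1h2ab and Hist1h2bk rose most, and 17 members were called higher and 0 lower, whereas 11.7% of all genes were called higher and 7.69% lower. Histone genes had a median log2 change of 0.38, against -0.01 for all genes. Called members were 1 of 5 H1, 6 of 15 H2A, 4 of 14 H2B, 3 of 10 H3 and 3 of 9 H4 genes. This comparison shares the progenitor arrays with those against intermediate mesoderm cells and embryonic kidneys. The 3 sets of changes are therefore not independent.

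Hist1h2ag stood at 7.68, 7.86 and 7.92 in 8D organoids, above the 3 progenitor values given before, a rise of 1.69 (SE 0.30, adjusted p = 0.000320). Hist1h1b, at 7.87, 8.04 and 8.16, rose by 1.61 (SE 0.27, adjusted p = 0.000184), and Hist1h2ab, at 9.56, 9.77 and 10.001, by 1.41 (SE 0.31, adjusted p = 0.00242). Replicates of the organoids lay close together for these genes. Hist1h2bk rose by 1.31. The H3 gene Hist1h3g, below the gauge in every group, rose by 1.06, a call lost without progenitor replicate 2 (adjusted p = 0.0508). The rise of Hist4h4, 0.52 with SE 0.17 (adjusted p = 0.0358), was lost in 8 of 14 alternatives.

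S phase genes gave 32 of 36 higher and mitosis genes 18 of 20. ESC markers rose too, 4 of 5 called, with list means of 7.87 to 9.19 in 8D organoids, and 5 of 6 red cell markers rose, with list means from 4.90 to 7.15. The part of these cells was not tested. Without progenitor replicate 3, 9 members were called. A fit to the progenitor and 8D arrays alone called 7, and within batch 2 arrays alone 18 were called.

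**Figure D3:**
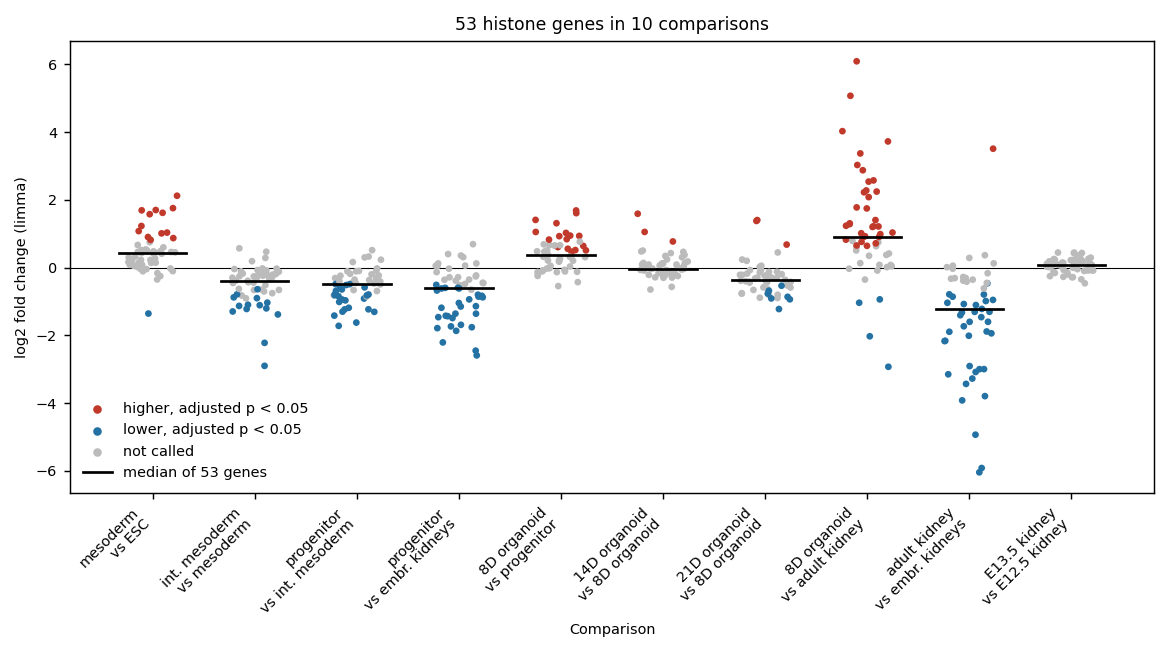
The log2 fold change of the 53 histone genes (dots) in 10 comparisons, fitted with limma, with the median as a bar. Red dots were called higher and blue dots lower at an adjusted p under 0.05. Adult kidney against embryonic kidneys has the lowest median, -1.21, with Hist1h2bc alone called higher at 3.51.

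From 8D to 14D organoids 3 histone genes were called higher and 0 lower, with 2.07% of all genes called, 1.63% higher and 0.442% lower. The median log2 change was -0.03, against -0.04 for all genes. The 3 were Hist3h2ba, Hist3h2a and Hist2h2be, none of them from the large Hist1 cluster. In 21D against 8D organoids the same 3 were called higher, while 7 other members were called lower. Of all genes, 5.95% were called higher and 5.54% lower in that comparison, and the median histone change was -0.36, against -0.04. Both comparisons share the 8D arrays. At 14D the count of 3 became 1 without 8D replicate 1 or 2 or without 14D replicate 2 or 3, and 0 in a fit to the 6 arrays alone.

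Hist3h2a (H2A) and Hist3h2ba (H2B) are neighbours on chromosome 11, with the pseudogene Hist3h2bb-ps and the gene Trim17 between them in the annotation. Hist3h2ba was at 3.67, 4.36 and 3.93 in 8D organoids, at 5.77, 5.44 and 5.54 in 14D organoids and at 5.75, 5.21 and 5.23 in 21D organoids. It was thus above the gauge on the 14D and 21D arrays, on some only narrowly, and below it in 8D organoids, without overlap. The rise was 1.59 at 14D (SE 0.23, adjusted p = 0.000786) and 1.41 at 21D (SE 0.23, adjusted p = 0.000431). A fit to the 8D and 14D arrays alone gave an adjusted p of 0.0813 at 14D.

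Hist3h2a was at 6.02, 5.20 and 5.85 in 8D organoids, at 6.76, 6.50 and 6.97 in 14D organoids and at 7.23, 7.16 and 6.82 in 21D organoids. The groups of 14D and 21D organoids lay above all 8D values. The rise was 1.06 at 14D (SE 0.27, adjusted p = 0.0433), a call lost in 8 of 14 alternatives (largest adjusted p = 0.188), and 1.38 at 21D (SE 0.27, adjusted p = 0.00187), which was kept in every alternative run. Hist3h2bb-ps, below the gauge in every group, was called in neither comparison. Hist2h2be rose by 0.78 at 14D (SE 0.18, adjusted p = 0.0213) and by 0.68 at 21D (SE 0.18, adjusted p = 0.0125), from 4.54, 4.54 and 5.11 at 8D to between 5.33 and 5.57. The 8D mean of Hist2h2be was below the gauge. Its 14D call was lost in 6 and its 21D call in 5 of 14 alternatives.

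Members that fell at 21D were Hist1h2ag, Hist1h3c, Hist2h3c2, Hist1h2bk, Hist1h2bh, Hist2h2ac and Hist2h2ab. For Hist1h3c and Hist1h2bh the 8D and 21D means were all below the gauge. Hist1h2ag values of 6.69, 6.08 and 7.03 gave a fall of 1.22 (SE 0.30, adjusted p = 0.00858), below all 8D values. Hist1h1b, at 7.53, 6.59 and 7.55, was below all 8D values too, but was not called (log2 change -0.80, adjusted p = 0.0522). Without 21D replicate 2, 0 members were called lower and 2 in either direction. Without 8D replicate 1 or 2 the total was 5, and without 8D replicate 3 it was 6. Within batch 2 arrays alone, which here leaves all 6 arrays compared and drops others from the shared spread, 14 members were called in either direction against 10.

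S phase genes gave 0 higher and 1 lower of 36 at 14D (24 at an unadjusted p under 0.05, median log2 change -0.44) and 31 lower at 21D. Mitosis genes gave 0 called by limma at 14D (11 at an unadjusted p under 0.05, median -0.43) and 19 of 20 lower at 21D. Fibroblast markers gave 1 of 7 higher in each comparison, with median log2 changes of 0.95 at 14D and 1.06 at 21D. Macrophage markers gave 3 of 5 higher at 21D, with list means of 6.002 to 7.07 against 5.45 to 5.77 at 8D. Their part was not tested.

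In adult kidneys against embryonic kidneys, 36 members were called lower and 1 higher, whereas 49.7% of all genes were called, 25.4% lower and 24.3% higher. Histone genes had a median log2 change of -1.21, against 0.08 for all genes. Members called lower were 4 of 5 H1, 11 of 15 H2A, 10 of 14 H2B, 7 of 10 H3 and 4 of 9 H4 genes, with type medians of -1.60, -1.73, -1.74, -1.01 and -0.61 in that order. Within batch 2 alone 36 members were called.

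Hist1h2ab was at 9.74, 9.12 and 10.07 in E12.5, at 10.55, 9.06 and 10.31 in E13.5 and at 3.55, 4.25 and 3.25 in adult kidneys. Its adult values lay among those of receptor genes, so the size of the change rests on background there. The fitted log2 change was -6.04 (SE 0.27, adjusted p = 1.07e-15), 65.8-fold. Hist1h1b went from between 8.41 and 9.58 in embryonic kidneys to 3.41, 2.75 and 2.67 in adult kidneys (log2 change -5.91, SE 0.23), and Hist1h2ag from between 8.39 and 9.04 to 3.59, 4.45 and 3.33 (log2 change -4.93, SE 0.26). Other members kept values above the gauge in adult kidneys, such as Hist1h2af at 7.47, 7.62 and 7.73, after a change of -3.91 (SE 0.16). The H2B gene Hist1h2bl stood at 10.71, 10.32 and 10.72 after a change of -1.94 (SE 0.14).

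Of the 5 linker histones 4 fell. Beside Hist1h1b, Hist1h1a had a change of -2.16 (SE 0.21), Hist1h1d, the H1.3 gene, of -1.60 (SE 0.18), and Hist1h1c, the H1.2 gene, of -1.32 (SE 0.17). Adult means of Hist1h1b, Hist1h1a and Hist1h1d were below the gauge, so the sizes of their changes rest on background there. Hist1h1c kept values of 6.76, 6.68 and 7.46 in adult kidneys against 8.17 to 8.36 in embryonic kidneys. Hist1h1t, below the gauge everywhere, was at 4.39, 4.35 and 4.44 in adult and 4.27 to 4.63 in embryonic kidneys and was not called in any of the 10 comparisons.

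Hist1h2bc was the single member higher in adult kidneys. Its values were 11.57, 11.42 and 11.74 there and lay between 7.30 and 8.55 in embryonic kidneys and between 7.30 and 9.75 on the other 27 arrays. The rise was 3.51 (SE 0.31, adjusted p = 5.48e-10), 11.4-fold, and was kept in every alternative run. Hist1h2bc belongs, with Hist1h1c, Hist2h2be, Hist3h2a and Hist4h4, to the genes with known polyadenylated mRNA in differentiated human cells. The others did not rise: Hist1h1c, Hist2h2be (log2 change -1.60, SE 0.15) and Hist4h4 (-1.40, SE 0.15) fell, and Hist3h2a had a change of -0.45 that was not called.

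A second exception, Hist1h4i, was highest in adult kidneys at 7.56, 7.51 and 8.09. Its embryonic values of 6.97 to 7.54 overlapped these and no difference was called, in contrast to the 4 H4 genes that fell, among them Hist1h4k (log2 change -3.15, SE 0.15). Hist3h2ba fell by 1.88 (SE 0.20) to between 3.15 and 3.38, below the gauge.

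The 8D organoids were likewise compared with adult kidneys. There 33 histone genes were called higher and 4 lower in organoids, where 22.7% of all genes were called higher and 22.1% lower. The median log2 change was 0.91, against -0.04 for all genes, and within batch 2 alone 37 members were called. Hist1h2ab was higher by 6.09 (SE 0.31), Hist1h1b by 5.08 (SE 0.27), Hist1h2ag by 4.03 (SE 0.30), Hist1h2af by 3.73 (SE 0.18), Hist1h2bk by 3.37 (SE 0.21) and Hist1h4k by 3.03 (SE 0.17). For the first 3 of these the adult values were below the gauge, so the size of the difference rests on background there. Lower in organoids were Hist1h2bc (-2.92, SE 0.35), Hist1h4i (-2.02, SE 0.21), Hist2h2be (-1.03, SE 0.18) and the H3 gene Hist1h3f (-0.93, SE 0.26), the last below the gauge in every group. For Hist1h2bc the organoid values were 8.85, 8.70 and 8.41, while the 8D mean of Hist2h2be was below the gauge. This comparison shares the adult arrays with the one before it.

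S phase genes gave 35 of 36 lower in adult than in embryonic kidneys and mitosis genes 20 of 20, and 35 and 20 were higher in 8D organoids than in adult kidneys. Red cell markers had list means of 5.54 to 5.74 in adult kidneys and 5 of 6 markers lower than in embryonic kidneys, and fibroblast markers gave 6 of 7 lower. Their part in the histone values was not tested.

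**Figure D4:**
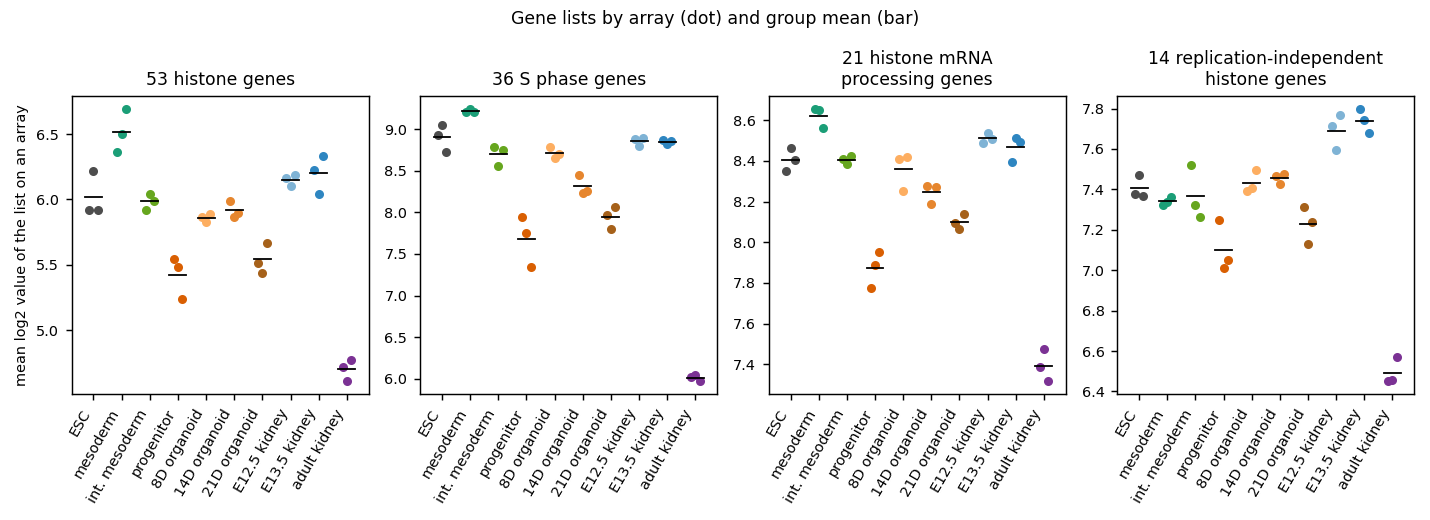
The mean log2 value of 4 gene lists on each array (dots) and the mean of each group (bars), with a scale of its own in each panel. The histone mean is highest on the mesoderm arrays (6.36 to 6.69) and lowest on the adult kidney arrays (4.61 to 4.77), and the S phase and processing lists have the same highest and lowest groups.

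Genes that make and handle histone mRNA were read in the same comparisons from a list of 22, of which 21 were measured. Of these, 17 were lower in progenitors than in intermediate mesoderm cells and 17 lower than in embryonic kidneys, 15 were higher in 8D organoids than in progenitors and 20 were lower in adult than in embryonic kidneys. Slbp had group means of 9.28 in mesoderm cells, 8.27 in progenitors, 9.03 in E12.5 and 7.38 in adult kidneys. Npat, which drives histone transcription at S phase entry, was lower in adult than in embryonic kidneys by a log2 change of -1.96, and Casp8ap2, a component of histone locus bodies, by -2.36.

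Of 22 histone chaperone and chromatin assembly genes 19 were measured, and 18 of them were lower in adult than in embryonic kidneys. Chaf1b, a subunit of the assembly factor CAF-1, had a log2 change of -3.68, and Nasp, a chaperone of H1 and H3-H4, of -3.65. In mesoderm cells against ESCs 5 were higher, among them Asf1a (0.78) and Chaf1a (0.72).

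Of 16 listed replication-independent histone genes 14 were measured, and 0 of these were higher and 1 lower in mesoderm cells than in ESCs (H2afy, macroH2A, -0.81), with a median of -0.07. In progenitors against intermediate mesoderm cells 6 were lower and 1 higher, the latter H1f0, the linker histone of non-dividing cells, at 1.75. In adult against embryonic kidneys 10 were lower and 0 higher, among them H2afx (-3.59), H1fx (-3.26) and the centromeric Cenpa (-2.80), while H3f3b, an H3.3 gene, changed by -0.87.

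In all, 45 of the 53 members were called in at least 1 of the 10 comparisons, as were 71.7% of all genes. The 8 never called were Hist1h1t, Hist1h2ah, Hist1h2al, Hist1h2bp, Hist1h3a, Hist1h4b, Hist2h3b and Hist3h2bb-ps, and 7 of these lay below the gauge in every group.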

How the data were processed

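The deposited table held log2 expression values of 23986 gene symbols on 30 arrays, made by the authors with RMA (background correction, quantile normalization and probe summary). The labels' processing notes name RMA and limma without versions. The sources used here do not say how probe sets became genes, by which annotation, or whether batches were corrected, and the labels and the study's methods name different RNA kits of one maker.

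A linear model with the 10 groups and the labelled batch was fitted to all 30 arrays with limma 3.58.1 (R 4.3.3, lmFit and eBayes, 19 residual degrees of freedom). P-values were two-sided and Benjamini-Hochberg adjusted over all 23986 rows, and adjusted p under 0.05 was called. For embryonic kidneys the coefficients of E12.5 and E13.5 were averaged. Python 3.11.15, pandas 2.3.3 and matplotlib 3.10.9 served for promoters and plots. On simulated data for adult against embryonic kidneys (23986 genes), 20 of 67 genes changed by 0.5 (log2) were recovered, 57 of 67 changed by 1 and 65 of 66 changed by 2, with 10 false calls. The simulation changed only these genes, with independent normal noise, whereas 49.7% of all genes were called in the real comparison. Its recovery rates need not hold there or in the other comparisons.

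The members and gene lists were chosen with earlier results of these data known. Genes were taken by a rule: in each comparison up to 6 called members with the largest change in either direction, the 4 widest and 4 narrowest members, every H1 gene, the testis forms and members with known polyadenylated mRNA, and the Hist3 and Hist4 members. Not every gene the rule gave is named in each comparison. Hist1h2bb in 8D organoids against progenitors (log2 change 1.03) is among those left out. Members named for their type or level (Hist1h2bl and others outside the rule) were chosen after their values were seen. Lists covered replication-independent histones, histone mRNA processing, chaperones, S phase, mitosis and marker genes of ESCs, mesoderm, intermediate mesoderm, embryonic kidney, adult tubule, fibroblasts and feeders, red cells, macrophages and germ cells. Alternatives were batch 2 arrays alone, no batch term, the compared groups alone, array weights, a trended and robust prior, quantile normalization, a filter on dim genes (17544 genes kept), a replicate block and leaving out each array.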

Additional observations from a re-analysis of the deposited data

How the results depend on the processing

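Of 83 calls of named histone genes, 59 were kept under every alternative run, 24 were lost at least once and 0 changed sign. A fit to the compared groups alone called 0 members in 14D against 8D organoids (3 in the fit to all arrays), 7 in 8D organoids against progenitors (17) and 13 in progenitors against intermediate mesoderm cells (24). Array weights called 22 in intermediate mesoderm against mesoderm cells (14). The causes were not tested. Leaving out each array gave 1 to 2 calls in 14D against 8D organoids, 2 to 11 in 21D against 8D organoids, 9 to 18 in 8D organoids against progenitors, 6 to 12 in intermediate mesoderm against mesoderm cells, 9 to 15 in mesoderm cells against ESCs and 15 to 21 in progenitors against intermediate mesoderm cells. It gave 26 to 30 in progenitors against embryonic kidneys, 34 to 38 in 8D organoids against adult kidneys and 36 to 38 in adult against embryonic kidneys, and 45 to 50 members varied over the groups.

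Same-numbered arrays of different groups had a median r of 0.01 between their deviations over 135 pairs, 19 of them over 0.1. Arrays with different numbers had -0.01 over 270 pairs, 26 of them over 0.1. Single pairs reached 0.52 and 0.51 in turn. A median over all groups cannot show whether some groups were paired, and this was not tested further. With the replicate number as a block the counts were 14 in mesoderm cells against ESCs, 15 in intermediate mesoderm against mesoderm cells, 26 in progenitors against intermediate mesoderm cells, 32 in progenitors against embryonic kidneys, 14 in 8D organoids against progenitors, 3 in 14D and 10 in 21D against 8D organoids, 37 in 8D organoids against adult kidneys, 37 in adult against embryonic kidneys and 0 in E13.5 against E12.5 kidneys. The filter on dim genes left 37 members, and the other 16 were not above the gauge on at least 28 of the 30 arrays.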
